A study of Mus musculus with 18 samples.

Results

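The genes described here run the entry into mitosis and the onset of anaphase. They are 10 genes: the B-type cyclins Ccnb1 and Ccnb2, their kinase Cdk1, its activating phosphatase Cdc25c, the mitotic kinase Plk1, the anaphase activators Cdc20 and Ube2c, their inhibitor Fbxo5, securin (Pttg1) and separase (Espl1). They were chosen by name, and every probe set annotated with 1 of these symbols alone was taken. Of the 10 genes, 9 were measured, by 14 probe sets, among 18193 genes on the array. A gene with several probe sets was read from the brightest of them, by its average across all 18 arrays. No probe set carried Ccnb1 as its single symbol in the annotation used here, so Ccnb1 has no values below.

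Mitosis starts when Cdk1, bound to a B-type cyclin, is switched on by Cdc25 phosphatases against the brake of the Wee1 and Myt1 kinases, with Plk1 feeding into the same switch. Chromatids then stay joined by cohesin until the anaphase-promoting complex (APC/C), a ubiquitin ligase activated by Cdc20 and served by the conjugating enzyme Ube2c, marks securin and cyclin B for destruction. Loss of securin frees separase, which cuts the cohesin subunit Rad21, while Fbxo5 (Emi1) holds the APC/C inactive before mitosis. In the small intestine, dividing progenitors lie in the crypts, and most genes of this kind peak in the late phases of their cell cycle.

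The study measured total RNA from small-intestinal crypts of 2-month-old adult mice in which Myc, E2f1 to E2f3, or all of these had been deleted with Ah-cre, an inducible Cre driven by the Cyp1a1 promoter and active in the intestine. Crypts were taken 2 days after deletion. There were 4 control arrays, 5 labelled E2f TKO (E2f1 to E2f3 targeted), 4 labelled Myc KO (Myc targeted) and 5 labelled E2f/Myc QKO (all of these targeted, here QKO). The labels do not say whether the controls carried the Cre transgene or received the inducer, nor whether each array came from a different mouse, so the p-values measure the spread between these samples. The Cre acts in an epithelium that holds several cell types, and crypt preparations were profiled whole.

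Every value below is a log2 signal, on which a difference of 1 is a doubling, and comparisons used 1 limma model over all 18 arrays with p-values adjusted over 18193 genes by the Benjamini-Hochberg method. A call means an adjusted p below 0.05. Myc fell by 1.68 in Myc KO and by 1.76 in QKO. E2f3 fell by 0.64 in QKO (adjusted p = 0.0192), but its difference in E2f TKO was -0.15 (adjusted p = 0.816), and E2f1 and E2f2 differed from control in neither group at the threshold (0.18 and 0.15 in QKO, -0.24 and -0.15 in E2f TKO). E2f1 was higher in QKO than in E2f TKO, by 0.42 (limma adjusted p = 0.0102). Where these probes lie relative to the deleted parts was not examined, so the E2f signals do not show whether the deletions took place, and the group names below are those of the labels. E2f3 read 8.22, 8.39 and 8.08 on E2f TKO 1, 3 and 4, below the lowest control (8.62), and 8.09 to 8.19 in QKO. The arrays labelled E2f TKO 2 and 5 had E2f3 signals of 9.35 and 9.10, above the highest control (8.96). Their Cyp1a1 signals were 5.05 and 4.91 where the other 16 arrays read 12.7 to 14.1. Results on the E2f TKO group are therefore given with and without these arrays. Crypt markers were present on every array, with Olfm4 between 12.5 and 13.4 and Lyz1 between 14.4 and 14.7, as were enterocyte genes such as Alpi (13.2 to 14.1).

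The promoters were searched for short sequences that many of these genes share. RefSeq windows of 300 bases (250 before to 50 after the gene start, build GRCm38.p6) were matched by symbol for 9 of the 10 genes: all but Cdc25c. The letters searched, on both strands, were TTTGAA, the core of the cell cycle homology region through which the MuvB complexes act; CCAAT, the box bound by NF-Y; TTTNNCGC with G or C at each N, an E2F-type motif; and CACGTG, the E-box read by Myc with Max. TTTGAA was present in 7 of the 9 windows, against 17.9% of all 32851 windows. CCAAT was present in 8 of the 9, against 37.4%, and 6 of the 9 held 2 or more copies, against 11.7%. The E2F-type letters were found in 1 window, that of Cdk1 (2.26% of all windows), and the E-box in 1, that of Espl1, beginning 122 bases before the start (7.15% of all windows). A match describes the letters and does not show binding, and windows without a match say nothing about a factor.

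The 250 bases before the start are shown for the genes that fell most in QKO (Espl1 and Ccnb2), the gene with the largest difference in E2f TKO (Fbxo5) and the genes that fell least in QKO (Cdk1 and Pttg1). Capitals mark the CCAAT box, the letters TTTGAA and the E2F-type letters on either strand, so ATTGG is CCAAT read from the other strand.
Espl1, chr15:102296043-102296292, plus strand: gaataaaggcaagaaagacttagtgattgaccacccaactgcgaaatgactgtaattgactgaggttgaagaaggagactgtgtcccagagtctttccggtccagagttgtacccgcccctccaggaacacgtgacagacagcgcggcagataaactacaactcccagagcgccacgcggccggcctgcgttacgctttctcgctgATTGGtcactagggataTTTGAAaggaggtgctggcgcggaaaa
Ccnb2, chr9:70421555-70421804, minus strand: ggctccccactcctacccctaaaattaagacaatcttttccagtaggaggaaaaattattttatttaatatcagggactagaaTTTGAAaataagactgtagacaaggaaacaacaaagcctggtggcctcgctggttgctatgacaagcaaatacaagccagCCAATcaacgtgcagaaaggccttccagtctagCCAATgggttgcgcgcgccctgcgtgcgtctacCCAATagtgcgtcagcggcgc
Fbxo5, chr10:5805466-5805715, minus strand: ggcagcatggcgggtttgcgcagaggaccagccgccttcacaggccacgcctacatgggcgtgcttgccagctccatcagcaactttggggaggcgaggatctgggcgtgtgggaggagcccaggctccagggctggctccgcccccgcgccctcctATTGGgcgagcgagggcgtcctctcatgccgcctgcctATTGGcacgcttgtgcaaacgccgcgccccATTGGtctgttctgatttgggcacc
Cdk1, chr10:69352913-69353162, minus strand: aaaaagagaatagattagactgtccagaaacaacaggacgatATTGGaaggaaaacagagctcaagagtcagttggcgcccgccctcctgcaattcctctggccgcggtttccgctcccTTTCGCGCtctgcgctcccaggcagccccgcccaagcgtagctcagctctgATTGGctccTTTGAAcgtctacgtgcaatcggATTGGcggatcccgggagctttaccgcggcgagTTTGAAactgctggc
Pttg1, chr11:43425982-43426231, minus strand: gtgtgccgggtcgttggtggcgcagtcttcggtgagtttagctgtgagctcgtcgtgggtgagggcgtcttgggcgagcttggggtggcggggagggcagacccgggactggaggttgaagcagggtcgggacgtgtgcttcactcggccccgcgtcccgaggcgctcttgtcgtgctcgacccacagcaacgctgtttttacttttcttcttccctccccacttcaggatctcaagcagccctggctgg
Ccnb2 had CCAAT boxes beginning 87, 54 and 21 bases before its start, all on the strand of the gene. Fbxo5 had 3 as well, beginning 93, 55 and 25 bases before, all on the other strand. Cdk1 had 3 CCAAT boxes and 2 copies of TTTGAA, which begin 71 and 15 bases before the start. In the Espl1 stretch a CCAAT box (44 bases before) is followed by TTTGAA (27 bases before). None of the searched letters occurred in the Pttg1 window. Further copies of TTTGAA lay at or after the start of Ccnb2, Fbxo5 and Plk1, in the part not printed.

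In the crypts labelled QKO all 9 measured genes were lower than in control, against a background of 12.6% of all genes called lower, and the median difference was -1.17 against 0.03 over all genes. On 8 of the 9, every QKO array lay below every control array (13% of all genes did so), Pttg1 being the exception. Espl1 and Ccnb2 fell the most, by 3.56-fold and 3.24-fold, and Pttg1 and Cdk1 the least, by 1.32-fold and 1.45-fold.

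**Figure D1:**
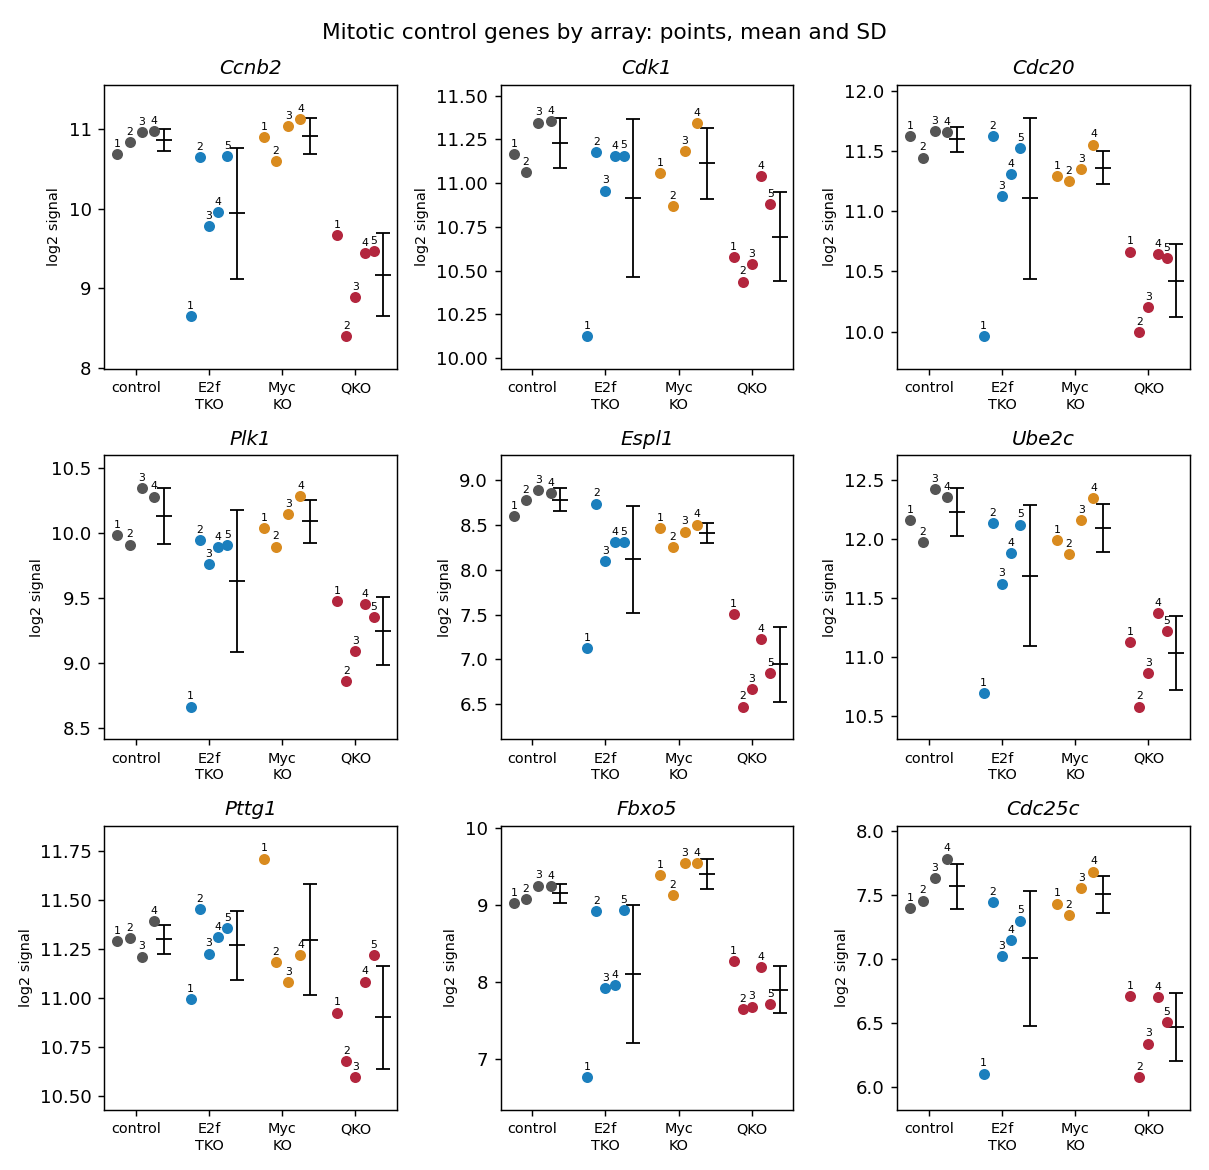
Log2 signal of the 9 measured genes (vertical axis, its own range for each gene) on each array, by group (horizontal axis). Points are arrays with their replicate number, and the black bars beside them are the group mean and SD. For every gene except Pttg1 the 5 QKO points lie below the 4 control points, the Myc KO points lie close to control, and E2f TKO 1 is the lowest point of its group for all 9 genes.

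Among the genes that start mitosis, Ccnb2, the cyclin B2 subunit of the mitotic kinase, read 10.69, 10.84, 10.96 and 10.98 on the control arrays and 9.67, 8.40, 8.88, 9.44 and 9.46 on the QKO arrays. The lowest control stood more than 1 log2 unit above the highest QKO array. The difference was -1.70 ± 0.32 (SE; limma adjusted p = 0.00106; n = 4 and 5).

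Its catalytic partner Cdk1 moved much less. Cdk1 read 11.16, 11.06, 11.35 and 11.35 in control and 10.58, 10.44, 10.54, 11.04 and 10.88 in QKO, so the groups came close to touching at 11.06 and 11.04. The difference was -0.54 ± 0.18 (limma adjusted p = 0.0390), a 1.45-fold decrease. This call was lost on leaving out control 1, 3 or 4 or QKO 1, 2 or 3 (limma adjusted p from 0.0583 to 0.10), and under quantile normalization (limma adjusted p = 0.0946).

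Cdc25c, a phosphatase that activates the cyclin B kinase, read 7.40, 7.46, 7.63 and 7.78 in control and 6.71, 6.08, 6.34, 6.70 and 6.51 in QKO. All QKO arrays were lower, and the difference was -1.10 ± 0.20 (limma adjusted p = 0.000841). Its second probe set gave -1.12. Plk1, which drives mitotic entry, spindle assembly and APC/C activation, ranged from 9.91 to 10.34 in control and from 8.86 to 9.47 in QKO. It fell by 0.88 ± 0.21 on the log2 scale (limma adjusted p = 0.00553), a 1.85-fold decrease.

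The genes that trigger anaphase were lower too. Cdc20, the APC/C activator, read 11.62, 11.44, 11.66 and 11.66 in control and 10.67, 9.998, 10.20, 10.64 and 10.61 in QKO. The gap between the groups was wider than the spread inside either, and the difference was -1.17 ± 0.24 (limma adjusted p = 0.00198). Its 3 probe sets gave -1.17, -1.05 and -1.0, each past the threshold. Ube2c, the ubiquitin-conjugating enzyme that starts chains on APC/C targets, read 12.16, 11.97, 12.42 and 12.36 in control and 11.12, 10.58, 10.86, 11.37 and 11.22 in QKO. Every QKO array was below control, by -1.20 ± 0.23 on average (limma adjusted p = 0.00124).

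Fbxo5, the inhibitor of the APC/C, was lower as well. It read 9.02, 9.07, 9.25 and 9.25 in control and 8.27, 7.64, 7.68, 8.19 and 7.72 in QKO, a difference of -1.24 ± 0.31 (limma adjusted p = 0.00722).

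Espl1 and Pttg1, the protease and the inhibitor that APC/C activity separates, stood at opposite ends. Espl1 (separase) read 8.60, 8.77, 8.89 and 8.85 in control and 7.51, 6.48, 6.67, 7.23 and 6.85 in QKO. Its difference of -1.83 ± 0.24 (limma adjusted p = 4.86e-05) was the largest of the 9. Pttg1 (securin) read 11.29, 11.31, 11.21 and 11.39 in control and 10.93, 10.68, 10.60, 11.09 and 11.22 in QKO, where QKO 5 lay inside the control range. The difference was -0.40 ± 0.14 (limma adjusted p = 0.0383).

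The Pttg1 call was the least firm of the group. A second probe set gave -0.34 (adjusted p = 0.196) and the remaining dim probe set gave 0.28 (adjusted p = 0.288), so its probe sets disagree in sign. With the mean of its probe sets the adjusted p was 0.412. The call was also lost on leaving out any control array or QKO 1, 2 or 3 (limma adjusted p from 0.0550 to 0.0994) and under quantile normalization (limma adjusted p = 0.141).

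Other features of the samples moved with this comparison. Of 8 further proliferation genes (Mki67, Top2a, Tpx2, Birc5, Ccna2, Aurkb, Kif11 and Nusap1), 8 of 8 were lower in QKO (Ccna2 is also among the 58 genes below), with a median difference of -1.23, and their mean level ran from 8.70 to 9.45 in QKO against 10.3 to 10.6 in control. Of 8 enteroendocrine markers, 6 were higher in QKO, and their mean level ran from 10.01 to 10.29 against 9.17 to 9.53. For these marker counts, 26.9% of all genes were called in either direction and 12.6% were lower. The mean of 11 enterocyte markers overlapped between the groups (11.5 to 12.9 in QKO, 12.1 to 12.7 in control, with 1 of 11 called higher), as did that of 10 T cell markers (7.02 to 7.71 in QKO, 6.57 to 7.98 in control, with 1 of 10 called higher). Of 6 stem cell markers 2 were higher in QKO, with means from 9.62 to 10.6 against 9.36 to 9.61. The actin control probe sets, whose 3′ minus 5′ log2 signal gauges RNA integrity, read 0.19 to 0.31 in QKO and 0.31 to 0.44 in control. The part of cell makeup and of RNA integrity in these differences was not tested, and in whole crypts fewer dividing cells and less RNA per cell cannot be told apart.

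**Figure D2:**
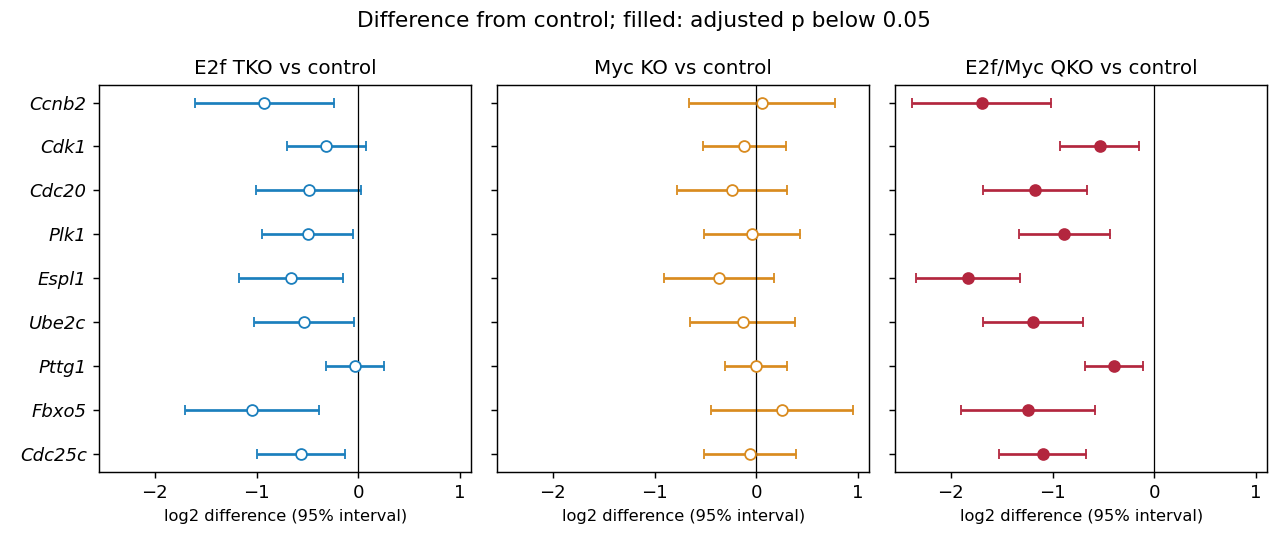
Log2 difference from control (horizontal axis) for each gene (vertical axis) in E2f TKO, Myc KO and QKO. Points are limma estimates with 95% confidence intervals, and filled points have an adjusted p below 0.05. All 9 QKO points are filled, none is filled in the other panels, and the E2f TKO points all lie left of 0, between -1.05 and -0.031.

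The arrays labelled E2f TKO gave differences that varied from array to array. Their E2f3 signals lay below every control array on E2f TKO 1, 3 and 4 and above every control array on E2f TKO 2 and 5. None of the 9 genes was called by limma in E2f TKO against control (background 2.9% of all genes). All 9 differences were negative, with a median of -0.54 against -0.0042 over all genes, and 6 had an unadjusted limma p below 0.05. The share of all genes below that unadjusted p was not computed, here or in the comparisons below. The 9 genes varied together (median correlation between 2 of them 0.92), so these counts are not independent. The groups did not overlap for 2 genes, Ccnb2 and Fbxo5 (2.54% of all genes were non-overlapping and lower). Fbxo5 had the largest difference and the lowest adjusted p, -1.05 ± 0.31 (limma adjusted p = 0.0911; n = 4 and 5). Its 5 E2f TKO arrays read 6.77, 8.92, 7.92, 7.96 and 8.93, all below the lowest control (9.02), E2f TKO 2 and 5 narrowly so. Ccnb2 read 8.65, 10.66, 9.78, 9.96 and 10.66, a difference of -0.92 ± 0.32 (limma adjusted p = 0.172), with the same arrays closest to control.

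For the remaining genes the E2f TKO arrays ran from within the control range to a level like that of QKO. Espl1 read 7.13, 8.73, 8.09, 8.30 and 8.31, and the difference was -0.66 (adjusted p = 0.194). Cdc20 read 9.96, 11.62, 11.12, 11.31 and 11.52, and the difference was -0.49 (adjusted p = 0.388). Ube2c read 10.69, 12.13, 11.62, 11.88 and 12.12, and the difference was -0.54 (adjusted p = 0.301). In each of these E2f TKO 1 was lowest and E2f TKO 2 highest. The differences were -0.56 for Cdc25c, -0.50 for Plk1, -0.32 for Cdk1 and -0.031 for Pttg1, with adjusted p-values from 0.191 to 0.961.

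The same E2f TKO arrays were low, or close to control, for most genes. The range over its 5 arrays was 0.46 to 2.16 across the 9 genes, against 0.18 to 0.45 over the 4 control arrays. Averaged over the 9 genes, E2f TKO 1 lay 1.53 below the control mean (a deviation of -1.53), E2f TKO 3 and 4 were at -0.59 and -0.44, and the arrays labelled E2f TKO 2 and 5 were at -0.08 and -0.18. E2f TKO 1 also had the highest enterocyte marker mean of any array (13.6, which is 1.16 above control), the highest T cell marker mean (8.25) and the lowest stem cell marker mean (8.79), whose part in its low mitotic signals was not tested. E2f TKO 2, the array nearest control, had an actin 3′ minus 5′ signal of 0.78, the highest of the 18 arrays (0.18 to 0.44 on the others), and the part of this was not tested either. The enteroendocrine marker mean was above every control array on all 5 E2f TKO arrays (9.81 to 9.89), with 2 of 8 markers called higher. Of all genes 2.9% were called in either direction.

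Without the arrays labelled E2f TKO 2 and 5, a setting chosen after the data were seen, 5 of the 9 genes were called lower in the remaining 3 arrays (3.92% of all genes were called lower in that fit). These were Fbxo5 at -1.60 (limma adjusted p = 0.000964), Ccnb2 at -1.40 (0.00901), Cdc25c at -0.81 (0.0267), Espl1 at -0.94 (0.0309) and Ube2c at -0.83 (0.0431). The size of the differences printed for the 5 arrays rests to a large part on E2f TKO 1. Without it, as with all 5 arrays, no gene was called. The median went from -0.54 to -0.29, Cdc20 from -0.49 to -0.20, Cdk1 from -0.32 to -0.12, Plk1 from -0.50 to -0.26, Ube2c from -0.54 to -0.29 and Fbxo5 from -1.05 to -0.71, and Pttg1 was at 0.038. The limma adjusted p was then 0.0745 for Fbxo5, 0.196 for Ccnb2 and 0.507 for Cdc20. With all 5 arrays it was 0.0911, 0.172 and 0.388. Leaving out E2f TKO 2 or E2f TKO 5 alone brought a call for Fbxo5 (limma adjusted p of 0.0265 to 0.0298).

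**Figure D3:**
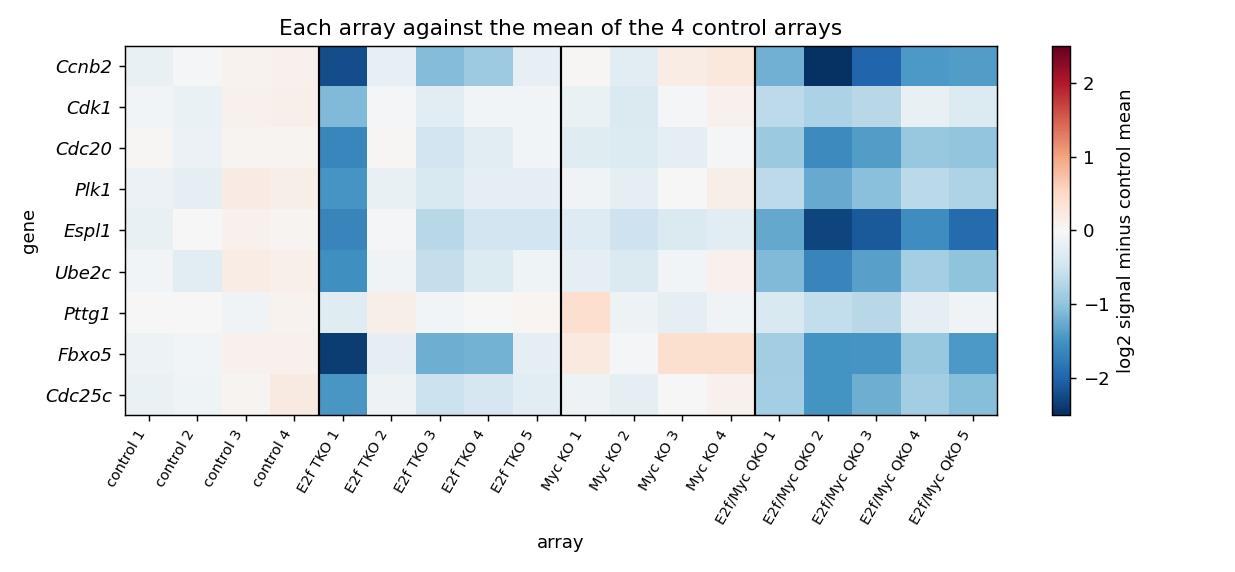
Log2 signal of each gene (rows) on each array (columns) minus the mean of the 4 control arrays, from blue (lower) to red (higher). The 5 QKO columns and E2f TKO 1 are blue for nearly every gene, whereas the arrays labelled E2f TKO 2 and 5 and the Myc KO columns are pale.

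Myc KO gave no call in this group. The comparisons of E2f TKO, Myc KO and QKO with control all use the same control arrays. None of the 9 was called by limma in Myc KO (background 8.31% of all genes), and none had an unadjusted p below 0.05. The median difference was -0.06 against 0.02 over all genes, and 7 of 9 were negative. The estimates ran from -0.37 for Espl1 to 0.25 for Fbxo5. Averaged over the 9 genes, Myc KO 1 to 4 lay at -0.06, -0.27, -0.04 and 0.08 from the control mean. They were below the lowest control array for 3, 8, 3 and 1 of the 9 genes, a count not made over all genes. Espl1 read 8.46, 8.25, 8.42 and 8.50, all below the lowest control array (8.60), with limma adjusted p = 0.408; in a fit of these 2 groups alone its adjusted p was 0.0190. Myc KO was thereby non-overlapping and lower for 1 of 9 genes, against 11.8% of all genes. Fbxo5 read 9.39, 9.12, 9.54 and 9.54, with 3 of 4 arrays above the highest control (9.25). The 95% intervals still allow sizeable changes, from -0.44 to 0.95 for Fbxo5, -0.91 to 0.17 for Espl1 and -0.67 to 0.77 for Ccnb2. Their width rests on a spread pooled over all 4 groups, E2f TKO included. For Fbxo5 the SD was 0.89 in E2f TKO, against 0.12 in control and 0.20 in Myc KO. The interval was narrowest for Pttg1, at -0.30 to 0.30 on its brightest probe set, but its second probe set was at -0.41 (interval -0.83 to 0.01), so the probe sets disagree here too. The enteroendocrine marker mean was above every control array on all 4 Myc KO arrays (9.64 to 9.902), with 2 of 8 markers called higher.

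QKO was also set against each of the other labelled groups. Against Myc KO, 7 of the 9 genes were lower in QKO (7.68% of all genes were called, 3.09% lower), with a median difference of -1.04, and the same number did not overlap (6.51% of all genes). The largest differences were those of Ccnb2, -1.75 ± 0.32 (limma adjusted p = 0.00278), Fbxo5, -1.5 ± 0.31 (0.00636), and Espl1, -1.46 ± 0.24 (0.00120), followed by Ube2c at -1.06, Cdc25c at -1.04, Cdc20 at -0.94 and Plk1 at -0.84. Cdk1, at -0.42 (adjusted p = 0.203), and Pttg1, at -0.40 (adjusted p = 0.0888), did not pass. The Cdc20 call was lost without Myc KO 1, 3 or 4 or QKO 2 or 3, and the Plk1 call without Myc KO 3 or 4 or QKO 2 (limma adjusted p from 0.0516 to 0.0782). Cdk1 was called without E2f TKO 1 (adjusted p = 0.0332), and Pttg1 without QKO 5 (adjusted p = 0.0440).

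Against E2f TKO, 3 of the 9 genes were lower in QKO (17% of all genes were called, 7.95% lower), and the median difference was -0.54 against 0.04 over all genes. No gene separated the groups completely, since E2f TKO 1 lay among or below the QKO arrays for all 9 genes. Espl1 fell by 1.17 ± 0.23 (limma adjusted p = 0.00271), and this call held on leaving out each array in turn. Cdc20, at -0.68 ± 0.23 (limma adjusted p = 0.0495), and Ube2c, at -0.66 ± 0.22 (limma adjusted p = 0.0485), were close to the threshold. The Cdc20 call was lost without any of the 17 arrays other than E2f TKO 1, and the Ube2c call without any of 16, all but E2f TKO 1 and QKO 4. In a limma fit of all probe sets with a single symbol, the dimmer Cdc20 probe sets gave -0.61 (adjusted p = 0.0583) and -0.72 (0.000304). Cdc25c gave -0.54 (adjusted p = 0.0601) on its brightest probe set and -0.68 (0.00676) on its second. No Pttg1 probe set passed. The share of all probe sets called there was not computed. Without E2f TKO 1, 8 genes were called, Fbxo5 not among them. The share of all genes called in that fit was not computed. Calls among 58 other mitotic control genes, described below, went from 10 to 27 in it. Without both arrays labelled E2f TKO 2 and 5, Espl1 alone was called (11.8% of all genes were called in that fit, 5.29% lower).

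Fbxo5 differed least between QKO and E2f TKO, by -0.20 ± 0.29 (limma adjusted p = 0.684, 95% interval -0.82 to 0.42), and its difference was 0.35 without the arrays labelled E2f TKO 2 and 5. In the comparison of E2f TKO with Myc KO, Fbxo5 was the gene called: it was lower in E2f TKO by -1.30 ± 0.31 (limma adjusted p = 0.0106), where 14% of all genes were called and 6.16% were lower. This call was lost in a fit of these 2 groups alone (limma adjusted p = 0.0753). With E2f TKO 2 and 5 left out, Fbxo5 was at -1.85, and Ccnb2 (-1.46) and Cdc25c (-0.74) were called as well. In that fit 12.5% of all genes were called and 6.18% were lower. Ccnb2 came next at -0.98 (limma adjusted p = 0.0529), and passed without E2f TKO 2, E2f TKO 5 or QKO 2 (limma adjusted p from 0.0263 to 0.0421). Ccnb2 also passed in the limma fit of all probe sets with a single symbol (adjusted p = 0.0464). There the second probe set of Pttg1 was higher in E2f TKO, by 0.57 (adjusted p = 0.0484). The brightest and dimmest Pttg1 probe sets were at -0.03 and 0.12, with no call.

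Whether the QKO difference exceeded the sum of the E2f TKO and Myc KO differences was asked with an interaction term. None of the 9 genes was called by limma (background 0.055% of all genes), and 1 had an unadjusted p below 0.05. All 9 estimates were negative, from -0.83 for Ccnb2 to -0.10 for Cdk1, with a median of -0.45, which was -0.73 without E2f TKO 1 and -0.23 without E2f TKO 2 and 5. Espl1 had the lowest p, at -0.80 ± 0.34 (limma adjusted p = 0.734). The 95% intervals of the other 8 genes included 0, as for Ccnb2 from -1.79 to 0.14. Without the arrays labelled E2f TKO 2 and 5, the estimates turned positive for Cdk1 (0.067) and Fbxo5 (0.099).

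The order of the group means was the same for 7 of the 9 genes: control highest, then Myc KO, E2f TKO and QKO. For Ccnb2 and Fbxo5 Myc KO stood above control. Neighbours in this order were not told apart by the test, except QKO from E2f TKO for Espl1, Cdc20 and Ube2c.

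The 9 genes varied together across the 18 arrays. Each was set against the mean of the other 8, scaled to equal variance, which as a description over arrays that share the group differences gave Pearson correlations from 0.73 for Pttg1 and 0.88 for Fbxo5 to 0.99 for Ube2c and Cdc25c. Outside the group, the 5 genes most like its mean were Knstrn (0.99), Cenpf (0.98), Anln (0.98), Aspm (0.98) and Cenpa (0.98). Since they were chosen for this likeness over the same arrays, their group differences follow from the choice and are given as a description. They differed from control by -1.26 (Anln) to -2.05 (Cenpa) in QKO, by -0.51 to -0.98 in E2f TKO with no call, and by -0.27 to 0.05 in Myc KO with no call.

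The wider machinery around these genes did not move as a block. Of 58 other mitotic control genes, all measured, 18 were lower and 3 higher in QKO against control. Of all genes 26.9% were called and 12.6% were lower. The median difference of the 58 genes was -0.13. Under quantile normalization the split was 17 lower and 8 higher. In the other comparisons the counts and their direction depended on which arrays were kept. In E2f TKO against control 1 was lower and 2 were higher (2.9% of all genes called), but 11 were lower and 3 higher without E2f TKO 2 and 5, 6 lower and 4 higher with array weights, and none was called without any 1 of the control arrays, E2f TKO 3, E2f TKO 4 or Myc KO 3. In Myc KO 2 were lower and 1 was higher (8.31% of all genes called), and 6 were lower and 1 higher without E2f TKO 1.

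In QKO against E2f TKO 8 were lower and 2 higher. Calls in either direction were about the share of all genes called (17%), and 7.95% of all genes were lower. The split was 25 lower and 2 higher without E2f TKO 1, 3 lower and 4 higher without E2f TKO 2 and 5, 4 lower and 5 higher under quantile normalization, 4 lower and 2 higher without E2f TKO 2, 3 or 4 or QKO 3, and 3 lower and 2 higher without QKO 2. Against Myc KO 10 were lower and 2 higher (7.68% of all genes called, 3.09% lower). The split was 18 lower and 3 higher without E2f TKO 1 and 5 lower and 1 higher without Myc KO 4. E2f TKO against Myc KO gave 4 in each direction (14% of all genes called, 6.16% lower). It gave 4 lower and 14 higher without E2f TKO 1, and 11 lower and 3 higher without E2f TKO 2 and 5. The interaction gave none (3 at an unadjusted p below 0.05).

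Of 18 genes of mitotic entry and Cdk1 control, 8 were lower in QKO and 1 was higher. Of all genes 26.9% were called and 12.6% were lower. Ccnf (cyclin F, a ubiquitin ligase subunit) read 9.22, 9.28, 9.56 and 9.46 in control and 7.75, 6.72, 7.05, 7.67 and 7.54 in QKO, a difference of -2.03 ± 0.26 (limma adjusted p = 3.34e-05). Its estimate was larger than that of any of the 9 genes, which was not tested. Nek2, a kinase of centrosome separation, fell by 1.09. The gene that rose encodes a brake: Pkmyt1, the Myt1 kinase that holds Cdk1 inactive, read 9.49, 9.60, 9.54 and 9.54 in control and 10.37, 10.48, 10.29, 10.59 and 10.36 in QKO, a difference of 0.88 ± 0.09 (limma adjusted p = 6.63e-06). In E2f TKO Ccnf was at -1.0 (limma adjusted p = 0.0441) and Pkmyt1 at 0.36 (limma adjusted p = 0.0416), but these calls were lost on leaving out any of 12 and 11 arrays (limma adjusted p up to 0.139 and 0.114), and with the 2 groups alone (0.154 and 0.135). Leaving out E2f TKO 2 and 5 together also ended the Pkmyt1 call (0.35, limma adjusted p = 0.0513), as did the mean of its probe sets (0.23, limma adjusted p = 0.0810). In Myc KO Gtse1, at 0.26 (limma adjusted p = 0.0218), was called, and lost on leaving out any of 4 arrays (adjusted p up to 0.0715).

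Cdc20 and Ube2c act on the APC/C, a complex of many subunits. Of 19 of its subunits and partners 5 were lower in QKO and none was higher, where 26.9% of all genes were called and 12.6% were lower. Cdc27, a core subunit, fell by 0.62 (limma adjusted p = 0.000105) and Cdc26, a small stabilising subunit, by 0.38 (0.00266). Ube2s, which extends the chains begun by Ube2c, fell by 0.74 (limma adjusted p = 0.00211) on its brightest probe set, whereas the value was 0.028 when probe sets of possible cross-hybridisation were left out. Cdc26 was also at -0.34 in Myc KO (limma adjusted p = 0.0258), a call lost on leaving out any of 6 arrays (limma adjusted p up to 0.0831) and with the mean of its probe sets (0.165).

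Among 8 genes of the spindle checkpoint, which restrains Cdc20, 2 were lower and 2 higher in QKO. Of all genes 26.9% were called in either direction and 12.6% were lower. Bub1b (BubR1), part of the complex that binds Cdc20, fell by 0.82 (limma adjusted p = 0.00618). Mad1l1, which recruits the inhibitor Mad2, was higher by 0.39 (limma adjusted p = 0.0105), and Mad2l1bp, which removes Mad2, by 0.37 (0.00342). Mad1l1 was also at 0.40 in E2f TKO (limma adjusted p = 0.0471), a call lost on leaving out any of 12 arrays (limma adjusted p up to 0.160) and under 5 other alternatives (0.0502 to 0.0988).

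Among 13 genes of cohesin and its protectors, 3 were lower in QKO and none was higher. The share called was near that of all genes (26.9% called, 12.6% lower). Rad21, the subunit that separase cuts, read 10.79, 10.69, 10.97 and 10.80 in control and 9.14, 8.96, 9.01, 9.47 and 9.40 in QKO, a difference of -1.62 ± 0.16 (limma adjusted p = 4.1e-06). It was also called in Myc KO, where it read 9.87, 9.64, 9.89 and 10.08, all below control, at -0.94 ± 0.17 (limma adjusted p = 0.00310). Whether its pattern differs from that of the 9 genes was not tested. Stag2 and Stag1, alternative cohesin subunits, fell by 0.60 and 0.45 in QKO.

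**Figure D4:**
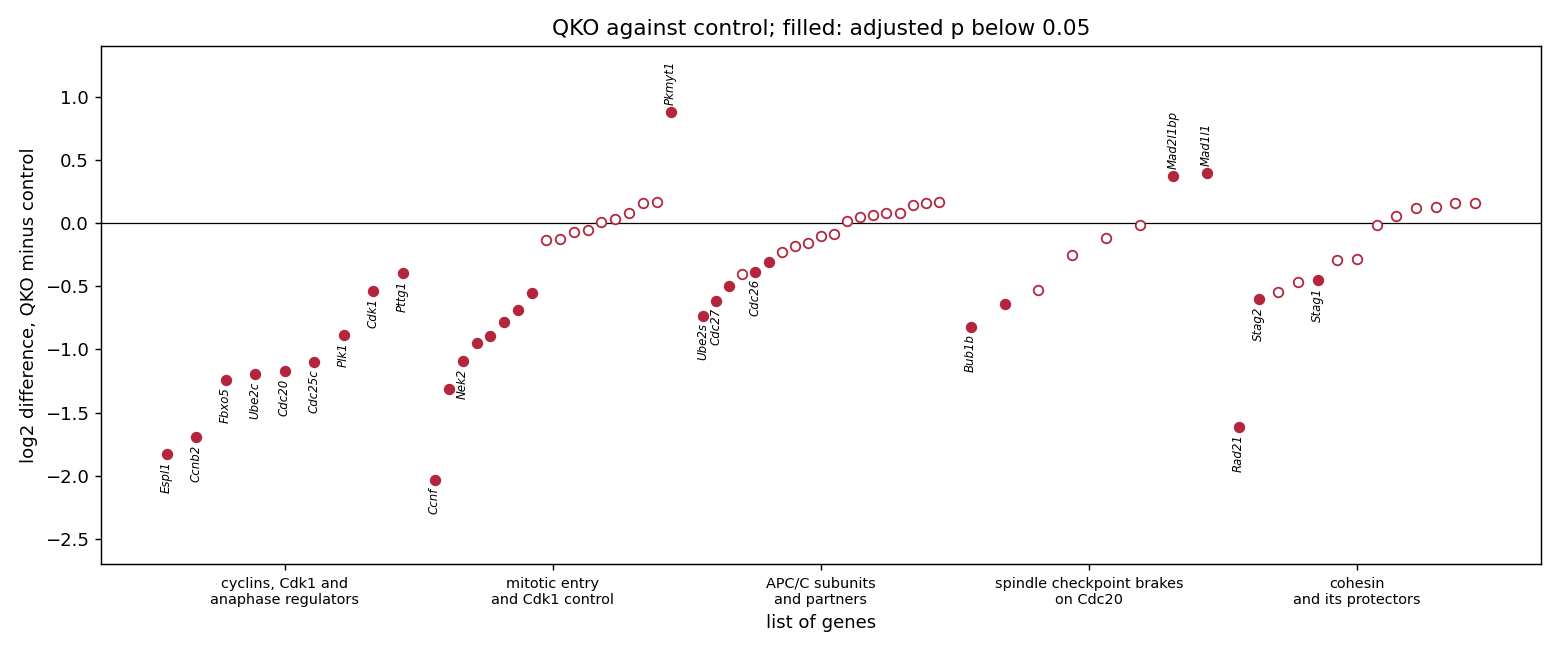
Log2 difference of QKO from control (vertical axis) for the 9 genes and for the 4 lists of other mitotic control genes (horizontal axis), ordered by value within each list. Filled points have an adjusted p below 0.05, and names are given for the 9 genes and the leading genes of each list. All 9 genes are filled and below 0, whereas most points of the other lists are open and near 0, with Ccnf at -2.03 and Pkmyt1 at 0.88 as the extremes.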

How the data were processed

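Biotin-labelled total RNA from 18 crypt samples was hybridised to arrays with 45101 probe sets. The authors deposited 1 table for the series, whose values are taken as log2 signals because they run from 2.29 to 14.81. How they were normalized and summarized is not given in the sources used here. All 18 columns matched a sample through its title, with groups taken from the titles. The values were used as deposited, array medians being 6.14 to 6.26.

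The platform annotation pairs 34945 probe sets with a single gene symbol, 932 with several and 9160 with none, beside 64 control probe sets. For each of 18193 genes the brightest probe set was used. Group means were fitted with limma 3.58.1 (R 4.3.3), with 7 contrasts from 1 model and Benjamini-Hochberg adjustment over all genes at 0.05. The spread was estimated jointly over all groups, so arrays of a group also affect the tests between other groups. The script was tested on simulated data. Their number limits the precision of these arrays.

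The 10 genes and all lists were chosen with earlier results of these data known. Genes named outside the 10 are the targeted loci with Cyp1a1, up to 3 called genes of smallest p in each list of other mitotic control genes, and the 5 genes most correlated with the mean of the 9. Alternatives were quantile normalization, a filter on dim genes, the mean of probe sets, no _s_at or _x_at probe sets, the groups of a comparison alone, a block for the replicate number, trended and robust variances, array weights and leaving out each array. Leaving out both arrays labelled E2f TKO 2 and 5 was added after the data were seen. Replicate numbers were not taken as pairs. Promoter sequences are from RefSeq (GRCm38.p6). Plots were drawn with matplotlib 3.10.9.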

Additional observations from a re-analysis of the deposited data

Results flagged for a closer look

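The array labelled E2f TKO 1 stood apart from the other 4 arrays of its group for 2 of the 9 genes. Cdk1 read 10.13 there, and the next lowest E2f TKO array read 10.96. Plk1 read 8.66, and the next lowest read 9.76. These gaps exceeded the 95% limit of Dixon's test for 5 samples. In all, 36 sets of arrays were examined (9 genes in 4 groups), and chance passes this limit in about 1 of 20 such sets. The same array was the lowest of its group for the other 7 genes without passing the limit.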

How the results depend on the processing

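Counts of called genes among the 9, with the alternative's count after the deposited-value count, moved as follows. For E2f TKO against control 0 became 4 with array weights and 5 on leaving out the arrays labelled E2f TKO 2 and 5; for Myc KO against control 0 became 1 with the 2 groups alone; for QKO against E2f TKO 3 became 1 with the 2 groups alone, 1 with trended and robust variances, 7 with array weights and 1 without E2f TKO 2 and 5; for E2f TKO against Myc KO 1 became 2 under quantile normalization, 2 with the filter on dim genes, 0 with the 2 groups alone, 3 with array weights and 3 without E2f TKO 2 and 5. The 9 calls in QKO against control numbered 7 to 9 under every alternative run (the filter on dim genes kept 8 of the 9 genes), and the 7 against Myc KO numbered 5 to 9. Among the 58 other genes, E2f TKO against control moved from 3 to 0 with the 2 groups alone, 1 with trended variances, 10 with array weights and 14 without E2f TKO 2 and 5; Myc KO against control from 3 to 8 with the 2 groups alone, 8 with array weights and 5 without E2f TKO 2 and 5; QKO against E2f TKO from 10 to 4 with the 2 groups alone and 25 with array weights; QKO against Myc KO from 12 to 23 with array weights; E2f TKO against Myc KO from 8 to 3 with the 2 groups alone, 20 with array weights and 14 without E2f TKO 2 and 5. Without E2f TKO 2 and 5, 7.27% of all genes were called in E2f TKO against control and 10.4% in Myc KO against control. In that fit 11.8% were called in QKO against E2f TKO and 12.5% in E2f TKO against Myc KO. Shares of all genes under the other alternatives were not computed, so those counts have no background. The cause was not tested.

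Leaving out each array in turn gave, among the 9, 0 to 1 calls (E2f TKO against control), 0 to 0 (Myc KO against control), 7 to 9 (QKO against control), 1 to 8 (QKO against E2f TKO), 5 to 8 (QKO against Myc KO), 1 to 2 (E2f TKO against Myc KO) and 0 to 0 (interaction). Among the other 58 it gave 0 to 5, 1 to 7, 17 to 29, 5 to 27, 6 to 21, 5 to 18 and 0 to 0 in the same order.

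The sign turned, for differences that had not passed the test except Ube2s, as follows. Pttg1 was at 0.12 (mean of probe sets) and 0.16 (no _s_at or _x_at probe sets) in E2f TKO, 0.070 in Myc KO (quantile), 0.068 in QKO against Myc KO (no _s_at or _x_at) and 0.22 and 0.57 in E2f TKO against Myc KO. Plk1 was at 0.026 (quantile) and Cdc20 at 0.058 (no _s_at or _x_at) in Myc KO. Without both E2f TKO 2 and 5, Fbxo5 was at 0.35 in QKO against E2f TKO, and the interaction was 0.067 for Cdk1 and 0.099 for Fbxo5. Ube2s was at 0.028 in QKO (no _s_at or _x_at). On leaving out an array, ranges crossed 0 for Pttg1 in E2f TKO (-0.077 to 0.038), for Ccnb2 (-0.015 to 0.16), Plk1 (-0.11 to 0.030), Pttg1 (-0.14 to 0.072) and Cdc25c (-0.12 to 0.0088) in Myc KO, for Fbxo5 in QKO against E2f TKO (-0.53 to 0.0081), and for Cdc20 (-0.38 to 0.034) and Pttg1 (-0.10 to 0.11) in E2f TKO against Myc KO.

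Same-numbered arrays of different groups deviated together weakly (correlations of -0.16 to 0.35, median 0.15, against a median of -0.04 for arrays of other numbers). Of 18 arrays, 8 correlated best with their own number. How many would do so without pairing was not worked out, and a shared effect of the number was not tested. The labels name no pairs and the numbers were not taken as pairs, so results with the number as a block are given. With the replicate number as a block, the count for E2f TKO against Myc KO went from 1 to 2 among the 9 and that for Myc KO against control from 3 to 6 among the other 58, and the counts of the 9 in the other comparisons stayed at 0, 0, 9, 3, 7 and 0, although in QKO against E2f TKO Cdc20 was lost and Pttg1 gained.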
